A study of Mus musculus with 6 samples.

Results

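The earliest adhesion tissue of the series, collected at day 1 after talc, was set against heart at day 0. These are 2 of the 6 libraries, 1 from each condition, chosen by tissue and day and not by any measured value. All groups were male C57BL/6 (B6) mice, 8 weeks old, with no transgene named in their labels. For adhesions, 300 µl of talc in saline (2.5 mg/g) was placed in the pericardial cavity through the diaphragm, and the tissue that formed there was harvested apart from the myocardium. The adhesion tissue group had received talc 1 day earlier, and the heart group is whole heart at day 0. The title and the stage label of the adhesion library give day 1 and its source label gives day 0. The heart library is day 0 in all its labels, while a supplementary table of the study heads it day 1. Whether tissue of several mice was pooled into a library was not stated in the sources used here.

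Tissue and day differed together between the 2 libraries and no condition had a replicate. No difference below therefore has a replicate check, no p-value is given, and the part of the tissue and the part of the day cannot be told apart. The files hold scaled values that are whole multiples of the value of 1 read, so reads were recovered. The adhesion library held 1790137 reads in 16194 genes, and the heart library 1713031 reads in 14852 genes. The authors scaled each tissue on its own, so levels are given here as CPM, the reads of a gene for every 1000000 reads in genes of its library. One read was worth 0.559 CPM in adhesion tissue and 0.584 CPM in heart. The range in parentheses after a fold is the exact 95% interval of the ratio of reads, which takes in the error of counting and nothing else. A library with 0 reads of a gene was set at a floor of 3 reads, and the fold is then written as at least that. A difference in CPM between bulk tissues cannot tell fewer cells of a type from less RNA per cell.

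Talc is a mineral powder that injures the lining of a body cavity and is used to glue its layers together. In injured tissue, resident cells release chemokines, small secreted proteins that draw leukocytes from the blood. Neutrophils are the first of these to arrive and carry proteases and antimicrobial proteins in granules, and monocytes follow and become macrophages. Fibrin and fibronectin form the early matrix, and fibroblasts later replace it with collagen. Heart muscle, in contrast, is built of cardiomyocytes, whose sarcomeres contract on calcium released through the ryanodine receptor and whose energy comes mostly from oxidation of fatty acids in mitochondria.

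The chemokines Cxcl1, Cxcl2 and Cxcl3, which draw neutrophils through the receptor Cxcr2, lie in a cluster on chromosome 5 and are printed first because their promoters carry the same short motif. The 150 bases before each RefSeq start (GRCm38.p6, which is mm10) are shown, with capitals where the letters match a form of the NF-kB motif, GGG and TTCC with any 3 bases between them. The promoter of Mybpc3, the cardiac myosin-binding protein C, stands beside them, with capitals at a match to a form of the MEF2 motif, CTA and TAG with any 4 bases between them.
Cxcl1, chr5:90891095-90891244, plus strand: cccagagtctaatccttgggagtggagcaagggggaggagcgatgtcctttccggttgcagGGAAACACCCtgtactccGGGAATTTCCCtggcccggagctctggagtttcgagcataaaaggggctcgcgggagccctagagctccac
Cxcl2, chr5:90903749-90903898, plus strand: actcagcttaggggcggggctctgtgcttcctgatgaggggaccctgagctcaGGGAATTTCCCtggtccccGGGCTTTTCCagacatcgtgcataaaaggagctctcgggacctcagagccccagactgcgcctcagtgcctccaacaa
Cxcl3, chr5:90785951-90786100, plus strand: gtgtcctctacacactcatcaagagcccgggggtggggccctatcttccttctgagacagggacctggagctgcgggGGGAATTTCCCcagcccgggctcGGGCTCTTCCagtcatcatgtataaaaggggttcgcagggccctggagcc
Mybpc3, chr2:91117994-91118143, plus strand: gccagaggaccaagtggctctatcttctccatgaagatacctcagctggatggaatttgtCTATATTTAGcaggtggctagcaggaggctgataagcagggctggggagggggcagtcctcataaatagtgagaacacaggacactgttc

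In the 250 bases before the start, searched on both strands, the NF-kB motif matched 3 times in each of these chemokine genes. Matches on opposite strands overlap in the run GGGAATTTCCC, which each of the promoters of these chemokines holds. The matches began 89 to 70 bases before the start of Cxcl1, 97 to 78 before that of Cxcl2 and 73 to 50 before that of Cxcl3. The single MEF2 match of Mybpc3 began 90 bases before its start. Of all 32851 promoters of this length, each counted by itself, 4.65% held the NF-kB motif and 3.20% the MEF2 motif. The shares that follow are of genes, where a gene counts if any of its promoters held the motif, so they differ in kind. Among the higher genes whose interval lay wholly past 3-fold, as counted below, 9.57% of 951 with a promoter held the NF-kB motif, against 4.58% of 437 such lower genes and 5.97% of all 13001 genes with a read and a promoter. The MEF2 motif was in 2.10% of those higher genes, 6.41% of those lower ones and 3.56% of all genes with a read and a promoter. The NF-kB motif was not alone in its larger share among the higher genes. The AP-1 motif, TGA and TCA with any base between them, was in 10.8% of the higher, 7.55% of the lower and 6.29% of all such genes. For the TATA motif, TATAAA, these shares were 14.6%, 11.2% and 9.18%. The promoters printed were chosen for their matches. Of the other higher genes searched one by one, Il1rn held the NF-kB motif, and Il1b, Ccl3, Lcn2, Saa3, S100a8, S100a9, Spp1 and Acod1 (the current symbol of Irg1) held no match to it in this window. Ccl3 held a match to the MEF2 motif. Cxcl5, Ccl2, Ccl4, Ccl7, Hp, Arg1 and Mmp9 had no promoter in the set used and could not be searched. A match is a description of the letters and not a site shown to be bound.

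Across all genes the adhesion library differed widely from heart. Of 16882 genes with a read in either library, 2702 (16.0%) were over 3-fold higher in adhesion tissue and 1201 (7.11%) were over 3-fold lower, on CPM with a pseudocount of 1. With the whole interval past 3-fold there were 1233 higher genes (7.30%) and 577 lower ones (3.42%). Of the 2702 higher genes, 668 had 0 reads in heart and 975 had fewer than 30 reads over both libraries. The median log2 ratio over all genes was 0.46, or 0.13 with genes at 0 reads set at the floor, and lists of genes are read against these values. Higher genes made up 69.2% of those over 3-fold in CPM, 53.9% with TMM scaling and 52.9% with DESeq2 size factors, which moved the median of all genes by -0.32 and -0.33. On the deposited scale it was 54.6%, with a shift of -0.35. Among genes with at least 30 reads, 55.5% of 10404 lay within 2-fold of heart.

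**Figure D1:**
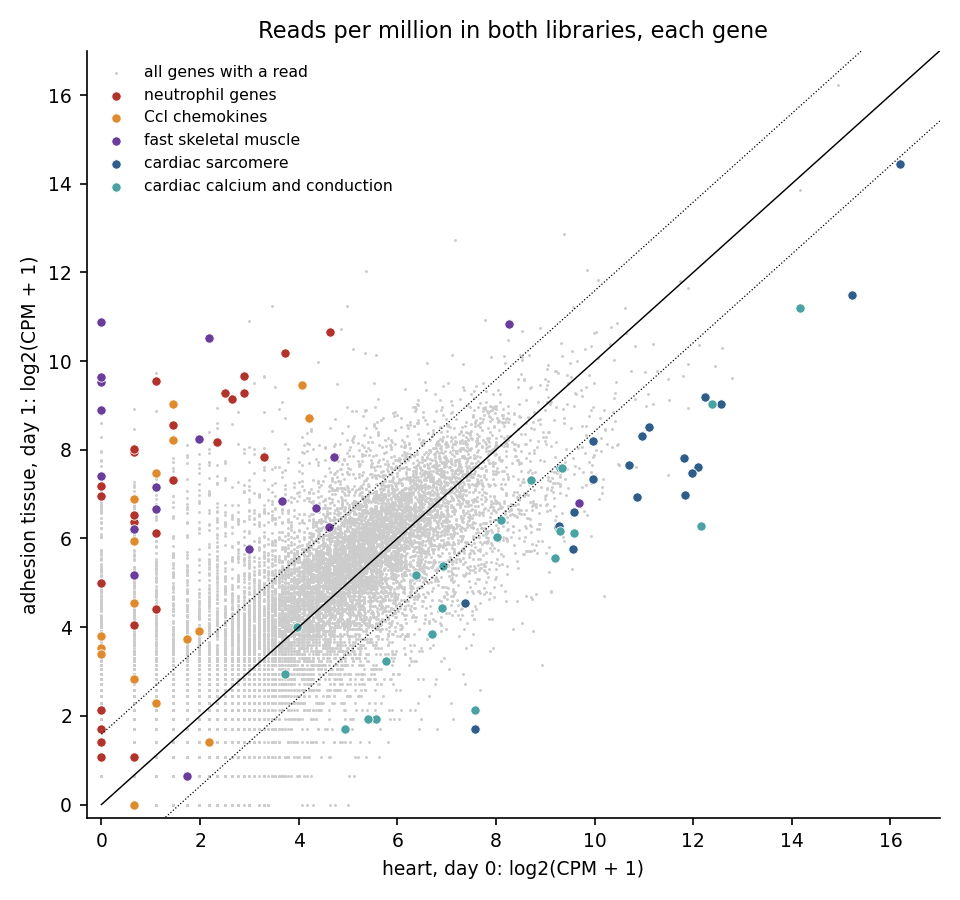
Log2(CPM + 1) of each gene with a read, adhesion tissue at day 1 on the vertical axis and heart at day 0 on the horizontal axis, with 1 library each. The solid line marks equal levels and the dotted lines 3-fold. Most neutrophil genes, Ccl chemokines and fast skeletal muscle genes lie above the upper dotted line, and all 20 cardiac sarcomere genes lie below the lower one.

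Genes of neutrophils stood out among the higher genes. In the list of neutrophil markers, granule proteins and alarmins, of 27 members with a read, 23 were over 3-fold higher and 0 lower, and the median log2 ratio was 5.85 (6.15 with zeros at the floor). Summed over the list, adhesion tissue had 8278 CPM and heart 82.3 CPM, which was 101-fold (85.2 to 119.6) higher. Lcn2, Itgam, Slfn4 and Itgb2 held 2874, 2082, 1344 and 1010 of its 14819 reads in adhesion tissue. Lcn2 is also in the acute phase list, and Itgam and Itgb2 are also in the leukocyte adhesion list, so the sum is not a measure of neutrophils alone. S100a9, a subunit of the alarmin calprotectin, had 807 CPM in adhesion tissue and 6.42 CPM in heart and was 126-fold (70.0 to 252) higher. Its partner S100a8 was 133-fold (67.2 to 309) higher, at 621 CPM and 4.67 CPM. Both folds were thus above 100, though both intervals reach below 100. Mmp9, the gelatinase that neutrophils store in granules (chromosome 2, 164948251 to 164955846), had 669 reads in adhesion tissue and 3 in heart and was 213-fold (72.7 to 1037) higher. The granule collagenase Mmp8 had 124 reads in adhesion tissue and 2 in heart. Slfn4, a Schlafen gene of myeloid cells, had 1344 and 2 reads in adhesion tissue and heart and was 643-fold (178 to 5315) higher. Itgam and Itgb2, the chains of the leukocyte integrin Mac-1, were 94.9-fold (61.9 to 154) higher and 107-fold (56.3 to 236) higher. Csf3r, the receptor of the granulocyte growth factor, was 97.3-fold (54.2 to 196) higher.

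Mpo, Camp, Prtn3, Elane and Ctsg, granule genes that neutrophils transcribe early, while still in bone marrow, were few in reads. Lcn2 and Mmp8, granule genes too, had more reads in adhesion tissue, as given above. Mpo had 2 reads in adhesion tissue and 1 in heart, Camp had 2 and 0, and Prtn3 had 6 and 0. Elane and Ctsg had 0 reads in both libraries. Ltf, another granule gene, had 164 reads in adhesion tissue and 1 in heart, but airway glands make it too, and airway genes were present in this library (below). Among other leukocyte genes, Ptprc, which encodes the leukocyte antigen CD45, was 23.8-fold (16.5 to 35.5) higher, and Sorl1, a sorting receptor, was 11.99-fold (9.06 to 16.2) higher. Anpep, an aminopeptidase of myeloid and other cells, lay within 3-fold, with 29.6 CPM in adhesion tissue and 16.3 CPM in heart.

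The ligands and receptors that bring neutrophils to tissue were all over 3-fold higher where a read was found. In the list of neutrophil attractants and their receptors, of 14 members with a read, 14 were over 3-fold higher and 0 lower, with a median log2 ratio of 5.40 (5.31 with zeros at the floor). Cxcl2 (chromosome 5, 90903899 to 90905938) had 863 reads, or 482 CPM, in adhesion tissue and 1 read in heart, and was 826-fold (148 to 32656) higher. Cxcl3 had 562 reads in adhesion tissue and 0 in heart and was at least 179-fold higher. Cxcl5 had 390 and 0 reads and was at least 124-fold higher. The reads of these 3 chemokines in heart did not exceed 1. Cxcl1 had 133 reads in adhesion tissue and 0 in heart. The receptors Cxcr2, Fpr1 and C5ar1 had 229, 86.6 and 282 CPM in adhesion tissue and 8.76, 0 and 12.3 CPM in heart. Csf3, the granulocyte growth factor itself, had 32 reads in adhesion tissue and 0 in heart.

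**Figure D2:**
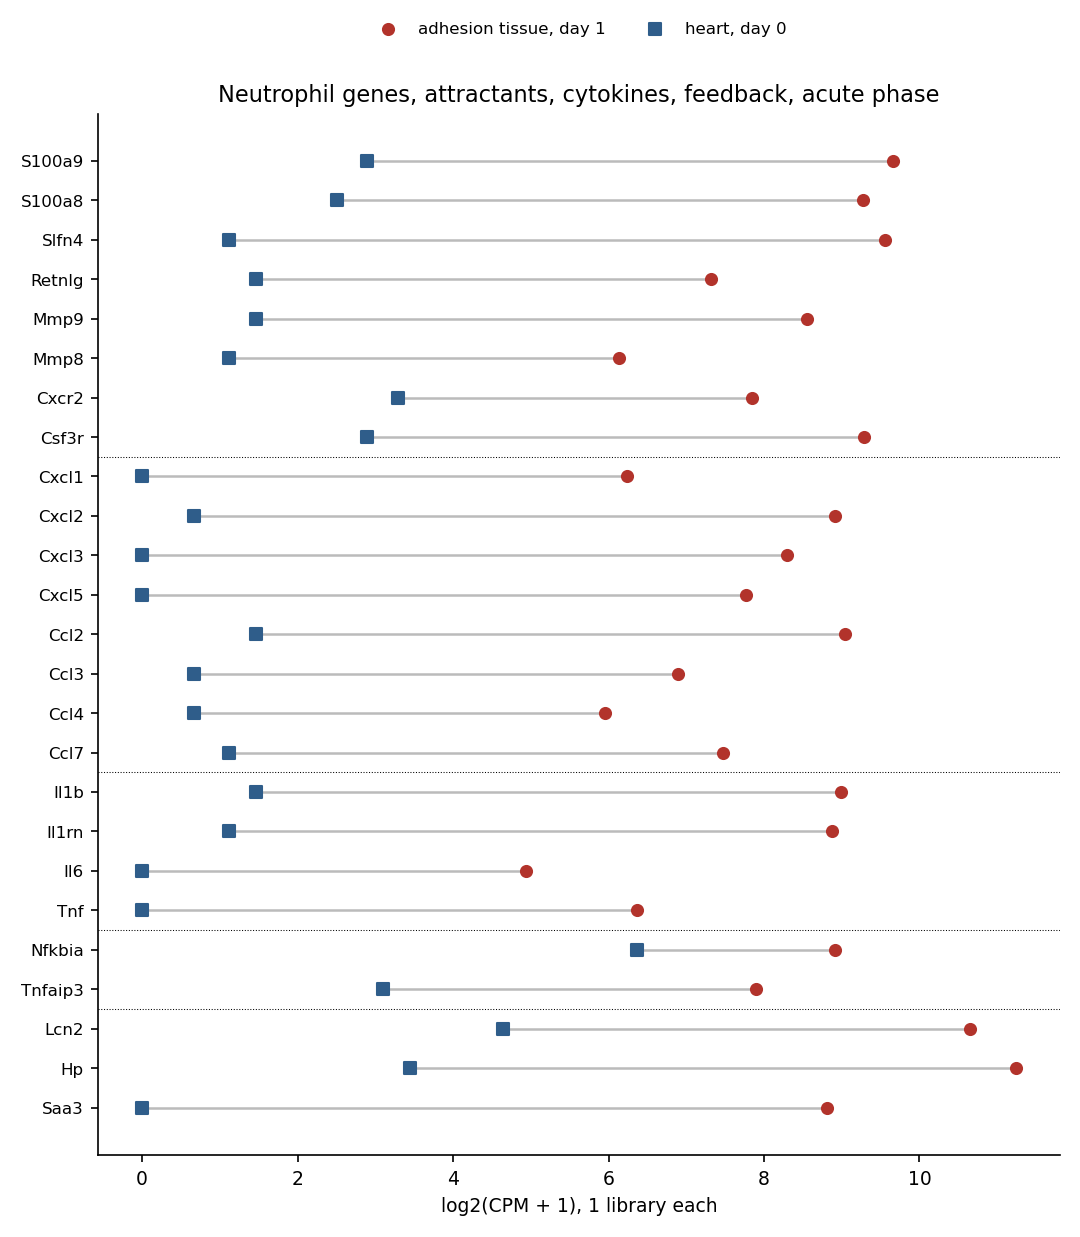
Log2(CPM + 1) of 25 genes in adhesion tissue at day 1 (circles) and heart at day 0 (squares), 1 library each. From the top, dotted lines separate neutrophil genes, attractants, cytokines, NF-kB feedback genes and acute phase genes. Every circle lies to the right of its square, and the shortest line is that of Nfkbia.

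Chemokines for monocytes and their receptor followed the same direction. Among the Ccl chemokines, of 17 members with a read, 14 were over 3-fold higher and 0 lower. Ccl2, the main attractant of monocytes, had 524 CPM in adhesion tissue and 1.75 CPM in heart and was 299-fold (102 to 1454) higher. Ccl7, another Ccr2 ligand, was 151-fold (41.5 to 1254) higher. Ccl24, an attractant of eosinophils, had 529 reads in adhesion tissue and 3 in heart and was 169-fold (57.4 to 821) higher. Ccl3 and Ccl4, chemokines that macrophages release, had 212 and 109 reads in adhesion tissue and 1 read each in heart. The receptor Ccr2 itself was 139-fold (38.1 to 1151) higher, and Ccr1 was 127-fold (43.2 to 619.8) higher. Ccl27a and Ccl28 had 3 and 0 reads in adhesion tissue and 6 and 1 in heart, too few to set apart, and exons of Ccl27a overlap a gene of the other strand. Of the other chemokines, Cxcl12, which holds leukocytes in tissue and bone marrow, lay within 3-fold at 282 CPM in adhesion tissue and 201 CPM in heart, while Cxcl13, a B cell attractant, had 214 and 0 reads.

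Of 30 monocyte and macrophage markers, 20 were over 3-fold higher and 1 lower. Arg1, arginase of macrophages and neutrophils, had 855 CPM in adhesion tissue and 1.17 CPM in heart and was 733-fold (202 to 6054) higher. Chi3l3, a chitinase-like protein of macrophages with near-identical relatives in the genome, had 864 reads in adhesion tissue and 0 in heart and was at least 276-fold higher. Spp1, the secreted matrix protein osteopontin, was 273-fold (156 to 529) higher, at 1912 CPM and 7.01 CPM. Cd14, the lipopolysaccharide co-receptor, was 93.1-fold (56.3 to 167) higher, and Ly6c2, a marker of inflammatory monocytes, had 40 reads in adhesion tissue and 0 in heart. The 9 members within 3-fold were C1qa, C1qb, C1qc, Cd163, Cx3cr1, Folr2, Lyve1, Mrc1 and Timd4. C1qa, a subunit of complement C1q, had 34.1 CPM in adhesion tissue and 32.7 CPM in heart, Mrc1, the mannose receptor, had 75.4 and 69.5 CPM, and Lyve1 had 22.3 and 42.6 CPM. The lower marker was Gata6, which cardiomyocytes also express, at 26.8 CPM in adhesion tissue and 95.7 CPM in heart.

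Members of the interleukin 1, interleukin 6 and TNF lists were higher to different extents. In the interleukin 1 and inflammasome list, of 21 members with a read, 19 were over 3-fold higher and 0 lower. Il1b, the secreted cytokine, was 291-fold (99.3 to 1415) higher, with 510.0 CPM in adhesion tissue and 1.75 CPM in heart. Il1rn, which encodes the antagonist of the same receptor, was 401-fold (111 to 3320.2) higher, and Il1r2, a decoy receptor, had 260 reads in adhesion tissue and 0 in heart. Ligand, antagonist and decoy were thus all above heart. Nlrp3, a sensor that assembles the inflammasome, was 95.4-fold (32.3 to 465) higher. In the interleukin 6 and gp130 list, of 21 members with a read, 14 were over 3-fold higher and 1 lower, and among TNF ligands and receptors, of 36 members with a read, 18 were over 3-fold higher and 0 lower. Il6 had 53 reads in adhesion tissue and 0 in heart, Osm, a relative of Il6, had 116 and 0, and Tnf had 146 and 0. Socs3, the feedback inhibitor of gp130 signaling, was 34.3-fold (21.3 to 59.3) higher. The shared receptor chain Il6st lay within 3-fold, at 536 CPM in adhesion tissue and 271 CPM in heart.

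Genes of NF-kB feedback, pattern recognition and interferon response were higher in most of their members. Among NF-kB subunits and feedback genes, of 25 members with a read, 21 were over 3-fold higher and 0 lower. Nfkbia, the inhibitor that holds NF-kB in the cytoplasm, was 5.90-fold (4.93 to 7.10) higher, and Tnfaip3, a ubiquitin-editing inhibitor, was 31.3-fold (18.1 to 59.2) higher. Exons of Nfkbia overlap a gene of the other strand. Sod2, a mitochondrial superoxide dismutase that heart muscle also expresses, had 473 CPM in adhesion tissue and 510.2 CPM in heart. In the list of pattern recognition genes, of 23 members with a read, 14 were over 3-fold higher and 0 lower. Tlr2 was 45.7-fold (23.0 to 107) higher, Tlr4 was 10.1-fold (6.65 to 16.1) higher and Tlr8 was 14.8-fold (3.77 to 128) higher, the last from 31 reads in adhesion tissue and 2 in heart. In the interferon-stimulated list, of 38 members with a read, 32 were over 3-fold higher and 0 lower, with a median log2 ratio of 2.36. The Ccl chemokines had 3.79, but this order depended on the pseudocount. With 5 CPM the medians were 2.05 for the interferon-stimulated genes and 1.84 for the Ccl chemokines. The antiviral gene Oas3 had 169 reads in adhesion tissue and 0 in heart. Irg1, the enzyme that makes itaconate in activated macrophages, had 855 reads in adhesion tissue and 0 in heart and was at least 273-fold higher.

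Acute phase and antimicrobial genes reached some of the highest levels of the library. Hp, haptoglobin, had 2422 CPM in adhesion tissue and 9.92 CPM in heart and was 244-fold (152 to 419) higher. Lcn2, which binds bacterial siderophores, had 1606 CPM and 23.9 CPM and was 67.1-fold (49.3 to 93.7) higher. Both were among the 10 genes with most reads per kilobase of exon in adhesion tissue, at 1801 and 1882 RPKM, which is CPM per kilobase. Saa3, a serum amyloid made outside the liver, had 800 reads in adhesion tissue and 0 in heart and was at least 255-fold higher. Saa1 and Saa2, the serum amyloids of the liver, had 3 and 10 reads in adhesion tissue and 0 each in heart. The fibrinogen genes Fga, Fgb and Fgg, also of the liver, and Alb, albumin, had 0 reads in both libraries. In this list of 18 members with a read, 14 were over 3-fold higher and 0 lower.

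Genes of clotting, oxidant production and protection were part of the higher set. Of 26 coagulation and plasminogen genes, 16 were over 3-fold higher and 1 lower. F10, coagulation factor X, had 382 reads in adhesion tissue and 0 in heart and was at least 122-fold higher. Plaur, the receptor of the plasminogen activator urokinase, was 109-fold (37.0 to 532) higher. F3, tissue factor, had 24.6 CPM in adhesion tissue and 22.2 CPM in heart. In the oxidase list, of 10 members with a read, 6 were over 3-fold higher and 1 lower. Ncf1, a subunit of the phagocyte oxidase, was 72.6-fold (38.03 to 159.5) higher, while Nox4, the oxidase of fibroblasts and cardiomyocytes, had 8 reads in adhesion tissue and 7 in heart. In the oxidative stress list, of 14 members with a read, 11 were over 3-fold higher and 1 lower. Slc7a11, a cystine transporter, had 697 reads in adhesion tissue and 0 in heart and was at least 222-fold higher, and Hmox1, which breaks down heme, was 34.4-fold (22.4 to 56.0) higher. Nqo1, a quinone reductase, was the member below heart, with 8.94 CPM in adhesion tissue and 36.2 CPM in heart.

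Matrix genes did not move as a group. In the list of fibronectin, matricellular and other matrix genes, of 42 members with a read, 11 were over 3-fold higher and 7 lower, and the median log2 ratio of 0.32 turned to -0.05 with TMM, -0.06 with DESeq2 and -0.08 with the deposited scaling, to -0.69 against heart at day 3 and to -0.62 against heart at day 7. Fn1, fibronectin (chromosome 1, 71585473 to 71653234), had 6777 CPM in adhesion tissue and 144 CPM in heart and was 47.2-fold (41.6 to 53.8) higher. Thbs1, thrombospondin 1, which platelets and injured tissue release, had 4212 CPM and 40.3 CPM and was 105-fold (82.5 to 135) higher. Vcan, versican, was 29.5-fold (23.1 to 38.1) higher, and Lox, which crosslinks collagen, was 27.7-fold (16.6 to 49.9) higher. Fbln1, fibulin 1, was 4.60-fold (3.502 to 6.12) lower. The summed CPM of this list was 5.16-fold (5.02 to 5.31) higher, and Fn1 held 12132 of its 32215 reads in adhesion tissue.

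Collagens were close to heart. Of 37 collagen chains, 4 were over 3-fold higher and 4 lower, shares of the list below and above those of all genes in the same directions. The main fibrillar chains Col1a1 and Col1a2 had 440.2 and 297 CPM in adhesion tissue and 283 and 302 CPM in heart. Col3a1, the chain of fine fibrils, had 1085 CPM in adhesion tissue and 368 CPM in heart, just inside 3-fold. The largest ratio with a firm interval was that of Col12a1, a collagen that sits on fibril surfaces, which was 17-fold (9.75 to 32.4) higher. Against heart at day 3 in place of day 0 the median log2 ratio of the collagens was -0.69 and at day 7 -0.62, against 0.58 with heart at day 0. Among the proteases of matrix, Mmp14 was 9.004-fold (5.79 to 14.7) higher and Mmp3 was 5.50-fold (2.57 to 13.5) higher, though the log2 CPM ratio of Mmp3 was -0.59 against heart at day 3. Mmp15, a membrane protease, was 9.85-fold (6.87 to 14.6) lower. Timp1, an inhibitor of these proteases, had 564 reads in adhesion tissue and 3 in heart and was 179.9-fold (61.2 to 875) higher, whereas Timp4, the inhibitor of heart, was 6.18-fold (3.23 to 12.98) lower.

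The genes that bind hyaluronan and the molecules that hold leukocytes to vessels were higher in part. Of 18 hyaluronan genes, 7 were over 3-fold higher and 0 lower, and of 21 leukocyte adhesion genes, 12 were higher and 1 lower. Cd44, the hyaluronan receptor, had 1015 CPM in adhesion tissue and 19.8 CPM in heart and was 51.1-fold (36.5 to 74.1) higher. Has1, a hyaluronan synthase, had 44 reads in adhesion tissue and 2 in heart. Selp and Sele, the selectins of activated endothelium, had 211 and 62 reads in adhesion tissue and 0 each in heart, and Icam1 was 11.96-fold (8.02 to 18.6) higher. Exons of Selp overlap a gene of the other strand. General endothelial markers did not share this. Of 19 of them, 1 was over 3-fold higher and 3 were lower, with a median log2 ratio of -1.19. Pecam1, an adhesion protein of vessel lining, had 108 CPM in adhesion tissue and 173 CPM in heart, and Kdr, the main receptor of Vegfa, had 78.8 and 183 CPM. The higher gene was Fabp4, which fat cells also express. Vegfa itself had 231 CPM in adhesion tissue and 338 CPM in heart.

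Smooth muscle genes named by the study gave mixed values. In the whole smooth muscle list, of 16 members with a read, 2 were over 3-fold higher and 7 lower. Of all genes, 16.0% were higher and 7.11% lower. Acta2, smooth muscle actin, had 97.2 CPM in adhesion tissue and 172 CPM in heart, and Tagln had 59.2 and 71.8 CPM. Both lay within 3-fold. Myocd, the coactivator of smooth and heart muscle genes, was 7.45-fold (5.31 to 10.7) lower, and Myh11, the smooth muscle myosin, was 4.77-fold (3.64 to 6.35) lower. Cnn1 had 7 reads in adhesion tissue and 17 in heart. Itga7, an integrin of muscle, had 246 CPM and 238 CPM. Exons of Itga7 and Tagln overlap a gene of the other strand. Tpm1, a tropomyosin that striated muscle shares, was 4.87-fold (4.65 to 5.09) lower, and Des, desmin of all muscle, had 862 CPM in adhesion tissue and 2071 CPM in heart. Vim, vimentin of mesenchymal cells and leukocytes, was 3.93-fold (3.56 to 4.35) higher, and Myh9, non-muscle myosin, was 4.47-fold (4.10 to 4.88) higher.

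Most signaling genes of PI3K and Akt lay within 3-fold. Of 17 subunits and regulators, 5 were over 3-fold higher and 0 lower. The higher ones were Pik3ap1, Pik3r5, Pik3cd, Pik3cg and Inpp5d, and Pik3cd was 14.7-fold (9.04 to 25.7) higher. Pik3r6, an adaptor like Pik3r5, had 61 reads in adhesion tissue and 33 in heart, within 3-fold. The broadly expressed Pik3ca had 106 CPM in adhesion tissue and 89.9 CPM in heart, and Akt1 had 237 and 256 CPM. Genes of cell division had few reads. Of 27 mitosis genes, 8 were over 3-fold higher and 1 lower, against 16.0% and 7.11% of all genes. The median log2 ratio of 1.08 was -1.43 against heart at day 3 and -0.16 against heart at day 7. Only 2 of the 27 were higher with intervals wholly past 3-fold, a share close to the 7.30% of all genes. Mki67, a marker of dividing cells, had 87 reads in adhesion tissue and 3 in heart. Among genes induced by glucocorticoids, of 18 members with a read, 7 were over 3-fold higher and 2 lower, against the same shares of all genes. The median log2 ratio of this list was 0.48, close to the 0.46 of all genes. Lcn2, also in the neutrophil and acute phase lists, held 2874 of the list's 10676 reads in adhesion tissue. Fkbp5 was 5.63-fold (4.29 to 7.499) higher and Klf15 was 5.87-fold (3.85 to 9.28) lower.

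The lower genes were led by those of heart muscle. All 20 of 20 cardiac sarcomere genes were over 3-fold lower, each with its interval wholly past 3-fold, and the median log2 ratio was -3.05. Together they took 2.87% of reads in adhesion tissue and 15.3% in heart. Myh6, the adult cardiac myosin heavy chain of mice (chromosome 14, 54941921 to 54966607), had 2868 CPM in adhesion tissue and 38266 CPM in heart and was 13.3-fold (12.97 to 13.7) lower. Myl2 and Myl3, the ventricular light chains, were 22.5-fold (20.2 to 25.1) lower and 22.7-fold (20.3 to 25.5) lower. Mybpc3 (chromosome 2, 91118144 to 91136516), whose promoter is printed above, was 29.3-fold (25.6 to 33.6) lower, at 125 CPM and 3664 CPM. Ttn, the giant spring of the sarcomere in heart and skeletal muscle alike, had the smallest fold of the list. Myh7, a myosin of heart and slow skeletal fibers, was 3.42-fold (3.10 to 3.78) lower. Myh7b, a related myosin, had the highest fold of the list, with 4 reads in adhesion tissue and 325 in heart. Myh7 and Myh7b have exons that overlap a gene of the other strand.

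Calcium handling and conduction genes went the same way. In that list, of 22 members with a read, 0 were over 3-fold higher and 17 lower. Pln, phospholamban, the inhibitor of the calcium pump (chromosome 10, 53337686 to 53345999), had 77.1 CPM in adhesion tissue and 4570.3 CPM in heart and was 59.3-fold (50.1 to 70.7) lower. The pump Atp2a2 was 7.89-fold (7.64 to 8.15) lower and the release channel Ryr2 was 10.2-fold (9.57 to 10.96) lower. Pump and inhibitor differed in ratio, and their intervals, which hold counting error alone, do not overlap. Atrial and skeletal muscle genes were also present in the adhesion library (below), and their part in this difference was not tested. Kcnip2, a subunit of a repolarizing potassium channel, was 57.0-fold (25.9 to 156) lower. Gja5, a gap junction protein of atrium, conduction system and arteries, had 27 reads in adhesion tissue and 25 in heart. Among cardiac transcription factors, Gata4 was 5.45-fold (3.96 to 7.65) lower, Nkx2-5 was 7.66-fold (4.67 to 13.3) lower and Tbx5, a factor of atrium and left ventricle, had 30.7 CPM in adhesion tissue and 42.0 CPM in heart. Fhl2, a LIM protein of heart, was 46.5-fold (34.6 to 63.9) lower, and Lrrc10, a cardiomyocyte protein, was 40.5-fold (21.1 to 89.4) lower. Dsp, desmoplakin of the junctions between cardiomyocytes and of epithelia, was 16.7-fold (14.9 to 18.8) lower.

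Atrial genes did not follow the ventricular ones. Nppa, the atrial natriuretic peptide, had 624 CPM in adhesion tissue and 781 CPM in heart. Myl7, the atrial light chain, had 388 reads in adhesion tissue and 390 in heart, Sln, the atrial inhibitor of the calcium pump, had 137 and 136, and Myl4 had 446 and 504. The adhesion library thus held atrial genes at about the level of heart beside ventricular genes at a small part of it. Of 9 members of the atrial list, 0 were over 3-fold lower. The one higher member, Myl1, is also a fast skeletal muscle gene. The median log2 ratio of -0.24 turned to 0.85 against heart at day 3. How much of each chamber either library held was not stated in the sources used here.

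**Figure D3:**
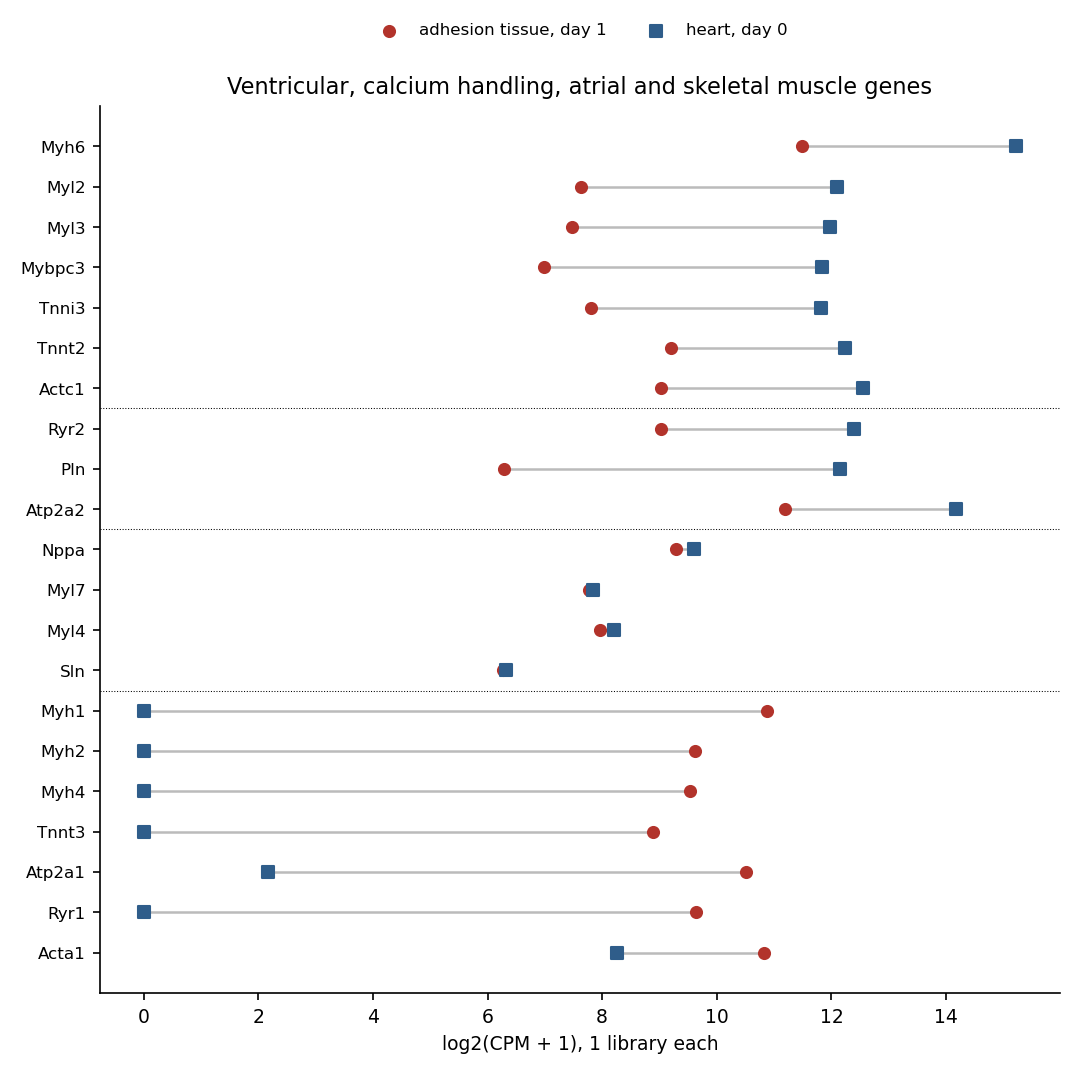
Log2(CPM + 1) of 21 muscle genes in adhesion tissue at day 1 (circles) and heart at day 0 (squares), 1 library each. From the top, dotted lines separate sarcomere genes of heart, calcium handling genes, atrial genes and skeletal muscle genes. The circles lie left of the squares for sarcomere and calcium handling genes, close to them for the atrial genes and right of them for the skeletal muscle genes.

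Mitochondrial genes were lower as a body. Of 84 oxidative phosphorylation genes, 0 were over 3-fold higher and 67 lower, with a median log2 ratio of -1.86. Of 24 citrate cycle and ketone genes, 0 were higher and 21 lower, and of 28 genes of fatty acid use, 1 was higher and 22 were lower. Fabp3, the fatty acid carrier of heart, had 194 CPM in adhesion tissue and 1828 CPM in heart and was 9.43-fold (8.44 to 10.6) lower. Oxct1, which lets heart burn ketones, was 8.03-fold (7.04 to 9.18) lower. Mb, myoglobin, was 8.96-fold (8.48 to 9.48) lower. Oxct1 and Mb have exons that overlap a gene of the other strand. The higher member was Pdk4, which brakes the entry of pyruvate into mitochondria and was 3.11-fold (2.84 to 3.41) higher. In the hypoxia and glycolysis list, of 36 members with a read, 12 were over 3-fold higher and 5 lower. Slc2a1, a glucose transporter, was 15.9-fold (10.99 to 23.8) higher, Slc16a3, a lactate exporter, was 118-fold (45.9 to 435) higher, and Hif1a was 6.66-fold (5.59 to 7.99) higher, but the muscle isoform Pfkm was 8.73-fold (7.62 to 10.05) lower and Ldhb was 9.20-fold (7.98 to 10.7) lower. Cpt1b, which heart muscle needs for fatty acid import, had only 2 reads in adhesion tissue and 7 in heart, and the hemoglobin genes had 0 in both. Exons of Cpt1b, Hba-a1, Hba-a2, Hbb-b1 and Hbb-b2 overlap another gene of the same strand, and the part of this in their counts was not tested.

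**Figure D4:**
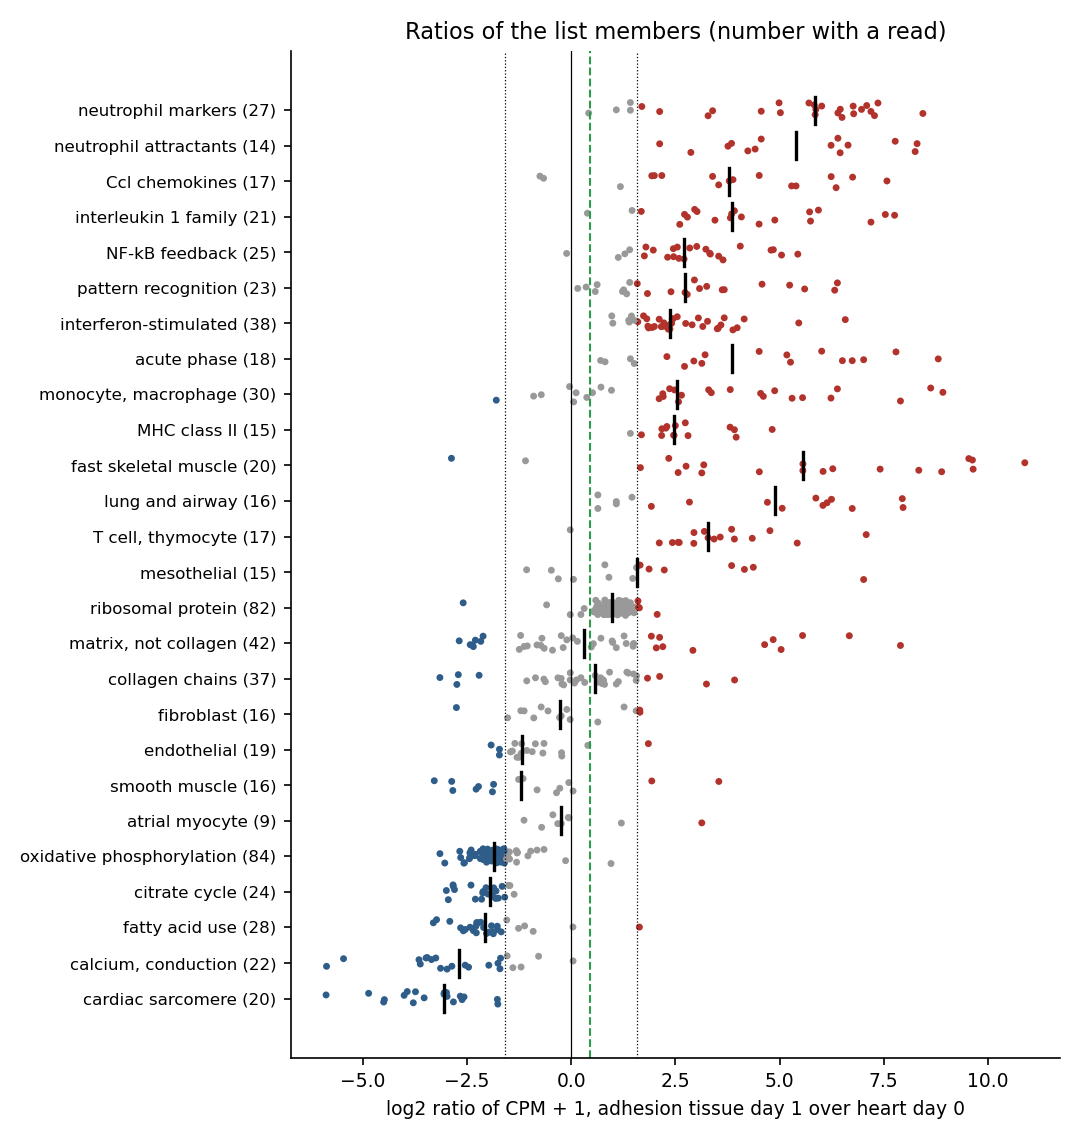
Log2 ratios of CPM + 1, adhesion tissue at day 1 over heart at day 0, for the members of 26 gene lists with a read. Each point is a gene, colored where it is over 3-fold, black bars are medians, dotted lines mark 3-fold and the dashed line is the median of all genes, 0.46. Sarcomere genes all lie left of the left dotted line, and neutrophil attractants all lie right of the right one.

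Markers of other tissues stood beside these results in the adhesion library. Of 20 fast skeletal muscle genes, 18 were over 3-fold higher and 1 lower, and their sum was 9481 CPM in adhesion tissue and 1227 CPM in heart. Myh1, a myosin of fast skeletal fibers (chromosome 11, 67200114 to 67224575), had 3380 reads in adhesion tissue and 0 in heart and was at least 1078-fold higher, the largest bound of all genes. Myh2 and Myh4, myosins of other fast fibers, had 1414 and 1331 reads in adhesion tissue and 0 each in heart. Ryr1, the skeletal calcium release channel, had 1430 and 0 reads, and Atp2a1, the skeletal calcium pump, which overlaps a gene of the other strand, had 2610 and 6. These genes define skeletal muscle and are not those of heart. Eno3, an enolase of heart and skeletal muscle, was 7.39-fold (6.37 to 8.61) lower.

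Among lung and airway epithelium genes, of 16 members with a read, 11 were over 3-fold higher and 0 lower. Scgb1a1, the secretory protein of club cells, had 445 reads in adhesion tissue and 0 in heart, and Bpifa1, a protein of upper airway secretion, had 439 and 0. Sftpc, which marks alveolar cells, had 1 read in adhesion tissue and 0 in heart. Of 17 T cell and thymocyte genes, 16 were over 3-fold higher and 0 lower. Rag1, which recombines antigen receptors in developing lymphocytes, had 240 reads in adhesion tissue and 0 in heart, and Dntt, of the same process, had 47 and 0. Among fat cell genes, of 16 members with a read, 10 were over 3-fold higher and 4 lower, while the summed list was 1.99-fold (1.92 to 2.05) lower. Its lower members were Lpl, Ppara, Cox8b and Cidea, and Lpl, a lipase that heart also expresses, held 9530 of the 11731 reads in heart. Adipoq, adiponectin, had 127 reads in adhesion tissue and 2 in heart, and Cfd, adipsin, had 1222 and 18. For the mesothelium, which lines the cavity, of 15 members with a read, 7 were over 3-fold higher and 0 lower, and the summed list was 4.84-fold (4.45 to 5.29) higher. The complement gene C3, which many cells make, held 2566 of its 3169 reads in adhesion tissue. Wt1, a mesothelial transcription factor, had 40 reads in adhesion tissue and 11 in heart, while Msln, mesothelin, had 27 and 13 and Upk3b had 13 and 28. The part of these tissues in the inflammatory genes was not tested in this library.

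Single libraries of later days differed in these markers. At day 3 the adhesion library had 0 reads of Myh1, 2 of Scgb1a1 and 19 of Rag1, with 312 of Cxcl2, 306 of Il1b, 323 of S100a9 and 345 of Mmp9. At day 7 it had 922 reads of Myh1, 258 of Scgb1a1 and 477 of Cxcl2. Myh6 had 5134, 177 and 3551 reads in adhesion tissue at days 1, 3 and 7. Reads of both muscle genes were thus fewest at day 3. Summed over the lists, neutrophil genes had 8278, 3719 and 3339.5 CPM and skeletal muscle genes 9481, 44.6 and 3399.7 CPM at days 1, 3 and 7. Collagens had 4642, 33604 and 52927 CPM at the same days. By these sums, day 1 was the lowest of the adhesion libraries for collagen and the highest for neutrophil genes. Members of the neutrophil list differed in this. Lcn2 had 1606, 137 and 47.7 CPM and Slfn4 751, 160 and 115 CPM at days 1, 3 and 7. Mmp9 had 374, 213.5 and 398 CPM and Itgb2 564, 843 and 887 CPM, so both were highest at day 7.

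**Figure D5:**
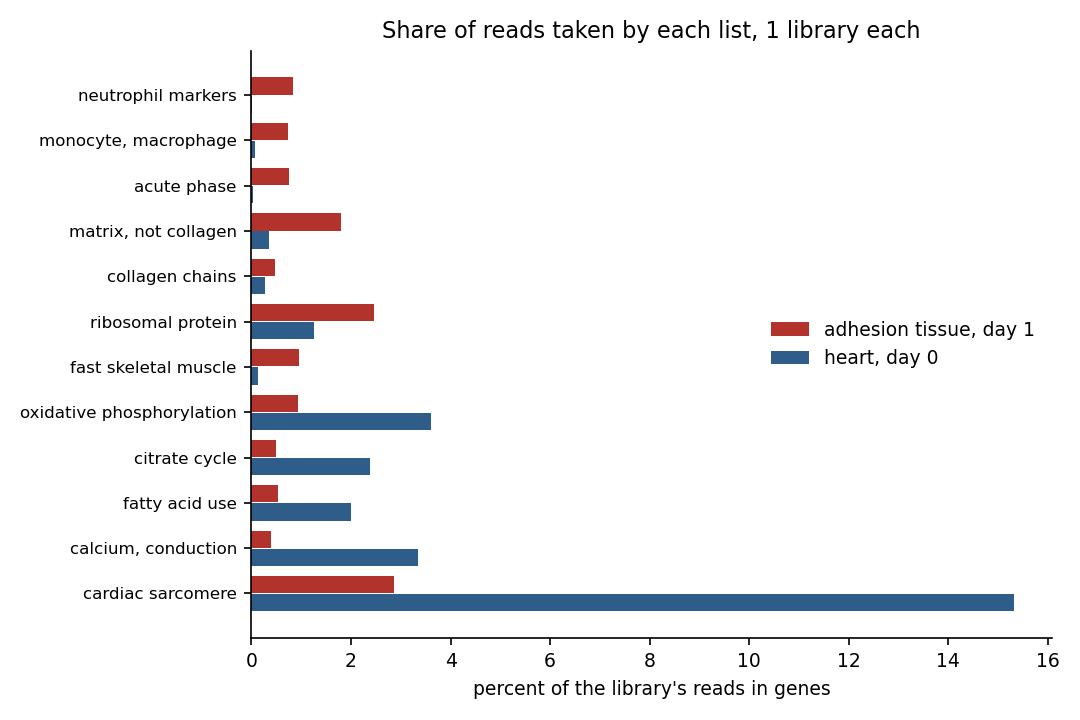
Percent of each library's reads in genes that fall in 12 gene lists, adhesion tissue at day 1 above heart at day 0, 1 library each. Cardiac sarcomere genes hold 2.87% in adhesion tissue and 15.3% in heart, and neutrophil markers 0.828% and 0.00823%.

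The ribosomal RNA precursor and the abundance of muscle genes weigh on every CPM. Rn45s, from which ribosomal RNA is cut, took 7.69% of reads in adhesion tissue and 3.14% in heart. Without it in the totals, 2820 genes were over 3-fold higher and 1142 lower. Without it and 173 muscle and oxidative phosphorylation genes in the totals, 2333 were higher and 1587 lower, so the split moved while higher genes stayed the larger number. Lars2, a gene that can collect ribosomal reads, was 17.3-fold (12.9 to 23.9) lower. Ribosomal protein genes had a median log2 ratio of 0.98, and Actb and Eef1a1, often used as references, were 11.2-fold (10.5 to 11.9) higher and 4.61-fold (4.37 to 4.87) higher. Malat1, a nuclear RNA, lay within 3-fold at 14959 CPM in adhesion tissue and 18501 CPM in heart.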

How the data were processed

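RNA from mouse adhesion tissue and heart was depleted of ribosomal RNA, made into directional libraries and read on a MiSeq. Per the labels, TopHat, Cufflinks, edgeR and the mm10 genome were used, while no version, counting tool or strand setting is given in the sources used here. Each table the authors deposited lists 23420 genes of 1 tissue, and a value is a signal, the read count times a factor set for the library. Dividing by the value of 1 read gave whole numbers, within 0.1 read, for 100% of values. The other 3 deposited value columns per table, headed stat_sam, rank_sam and fdr_sam, hold the authors' own comparison and were not used. In both tables, 27 names had turned into dates and 2 stood more than once.

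Reads were scaled to CPM. Genes with (CPM + 1) over 3-fold apart were counted with no filter. Exact conditional binomial intervals were computed with scipy 1.17.1, and edgeR 4.0.16 and DESeq2 1.42.0 gave scaling factors only. No test across replicates was possible. The procedure was tested on simulated data. Genes were named by a rule: the 25 largest rises and falls by the interval bound nearest to 1 with at least 20 reads, members of 69 gene lists, 24 genes named by the study, the 10 genes of each library with most reads per kilobase, and Rn45s and Lars2. The comparison, the members and the lists were chosen with earlier results of these data known. Exons of 81 of the 1449 list genes overlap a gene of the other strand, and those of 36 a gene of the same strand. Promoters are those of RefSeq, build GRCm38.p6, found for 13001 of 16882 genes with a read. Alternatives for scaling, pseudocount, filters, threshold and library were fixed with the lists, and 1 was added after seeing the data.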

Additional observations from a re-analysis of the deposited data

How the results depend on the processing

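No paired analysis was possible because each condition holds 1 library. The counts over 3-fold, 2702 higher and 1201 lower in adhesion tissue, or those with the interval, moved by over 1.5 times under these settings. A pseudocount of 5 CPM gave 1468 higher and 746 lower genes. A minimum of 30 reads over both libraries gave 1727 higher genes, and a minimum of 100 reads gave 1054 higher and 626 lower, with 750 higher genes past the interval. A 2-fold threshold gave 5039 higher and 2271 lower, with 2077 and 1081 whose interval was past 2-fold. A 5-fold threshold gave 1352 and 499, with 714 and 214 past 5-fold. Of the genes with intervals past 3-fold, 1233 higher and 577 lower, the lower ones numbered 871 with TMM, 881 with DESeq2 size factors and 901 on the deposited scale, which also gave 2009 lower genes without the interval. Against heart at day 3, 1708 genes were higher, 744 past the interval. Against heart at day 7, 1754 were higher, 767 past the interval. With adhesion tissue at day 3 in place of day 1, 979 genes were lower with the interval past 3-fold. Against heart at day 3 the log2 CPM ratio of Mmp3 reversed to -0.59, against 2.23 with heart at day 0. The cause was not tested for the changes with scaling or with another library. Scaling turned the signs of list medians near 0, as given for the matrix genes, and the hypoxia and PI3K lists, with 0.31 each, came to -0.03 and -0.05 with TMM. Leaving out the muscle, airway, thymus, B cell, fat and nerve lists, a choice made after seeing the data, moved no count by over 1.5 times. At 1790137 and 1713031 reads, differences in genes with few reads were not detectable at this depth.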
